A study of Rattus norvegicus with 4 samples.

Results

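The genes described here are the 2 opioid peptide precursors Pdyn (prodynorphin) and Penk (proenkephalin) and the 3 opioid receptor genes Oprm1 (mu), Oprd1 (delta) and Oprk1 (kappa). They were taken by symbol from the feature lists of the study, and all 5 were found once each among 30560 listed genes. RNA of single nuclei had been counted in the nucleus accumbens, a part of the ventral striatum, of adult rats (Sprague-Dawley, 90 to 120 days old). The study asked how cell types of this region respond to repeated cocaine. Rats were given daily intraperitoneal injections for 7 days, of cocaine at 20 mg per kg or of saline, and tissue was collected 1 hour after the final one. There were 4 libraries: saline female, saline male, cocaine female and cocaine male. Each was a pool of tissue from 4 rats, punched around the accumbens core, so every group of a treatment and a sex is 1 pool. Each treatment has 2 pools, 1 of each sex. The p-values rest on the spread between pools, taken largely, and in some fits wholly, from all genes together and not from each gene alone. The labels name no transgene or deletion, and the saline rats received injections on the same schedule.

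Opioid peptides are cut out of larger precursor proteins in the secretory pathway, and the peptides act on receptors that couple to inhibitory G proteins. Dynorphins from Pdyn prefer the kappa receptor, and enkephalins from Penk act on the delta and mu receptors. In the striatum, dynorphin is a classic product of medium spiny neurons (MSNs) with the D1 dopamine receptor and enkephalin of those with the D2 receptor, and both precursor genes are known to respond to dopamine and to drugs of abuse.

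The libraries held 26228 nuclei, of which 24843 were kept after filters and removal of 1381 likely doublets. Total counts of unique molecular identifiers (UMIs, 1 per captured RNA molecule) ran from 31484217 to 40737786 per library, and the cocaine male library had the lowest median depth, 4363 UMIs per nucleus against 5032 to 5066 in the others. Between 10 and 18 cell barcodes were shared by any pair of libraries. Clusters were made without the 5 genes, other opioid genes and immediate-early genes, and were named from marker lists. There were 4894 D1-MSN-like, 3817 D2-MSN-like, 1150 Grm8-rich MSN-like and 808 Casz1-rich (eccentric) MSN-like nuclei, the last 2 being smaller classes with their own marker lists. The other classes were 1935 other GABAergic-like, 507 Pthlh, 237 Sst and 80 cholinergic interneuron-like nuclei, 448 glutamatergic-like nuclei, 6657 oligodendrocyte-like, 1007 oligodendrocyte precursor-like, 1732 astrocyte-like, 779 microglia-like and 90 vascular-like nuclei. Drd1 stood at 96.2 counts per 1000000 UMIs of the summed nuclei (CPM) in the largest D1 sub-cluster and 2.70 CPM in the largest D2 cluster, and Drd2 at 6.04 and 790.6 CPM. Casz1-rich nuclei had Drd1 at 111 and Drd2 at 8.34 CPM, and Grm8-rich nuclei had 51.4 and 0.670 CPM.

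For 3 of the 5 genes the RefSeq promoter table (assembly GRCr8) held a start site, namely Pdyn, Oprd1 and Oprm1. The 250 bases before the start of Pdyn and Oprd1 are shown because these were the peptide gene most confined to D1-MSN-like nuclei and the receptor gene most confined to D2-MSN-like nuclei. Capitals mark a TATAAA match in Pdyn and a CACGTG (E-box) match in Oprd1, and both sequences are written along the gene's own strand, 5′ to 3′.
Pdyn (GRCr8, chr3:137366504-137366753, minus strand): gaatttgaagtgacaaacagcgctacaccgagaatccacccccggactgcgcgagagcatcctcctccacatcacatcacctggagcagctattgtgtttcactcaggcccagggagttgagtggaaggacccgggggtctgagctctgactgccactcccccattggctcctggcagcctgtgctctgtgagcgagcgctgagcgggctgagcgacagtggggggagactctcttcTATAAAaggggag
Oprd1 (GRCr8, chr5:149625000-149625249, minus strand): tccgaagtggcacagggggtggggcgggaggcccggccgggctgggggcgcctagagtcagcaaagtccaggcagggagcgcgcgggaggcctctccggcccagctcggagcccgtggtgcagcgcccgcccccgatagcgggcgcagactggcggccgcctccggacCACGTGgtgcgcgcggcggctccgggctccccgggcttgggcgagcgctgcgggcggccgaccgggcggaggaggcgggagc
The Pdyn window was 59.2% G or C with 10 CG pairs, and the Oprd1 window was 79.6% G or C with 34 CG pairs, above 98.8% of the 33469 promoters in the table. The median promoter had 51.2% G or C and 5 CG pairs. Both strands were searched for TGACG, for TGACGTCA (which contains it), for TGANTCA, for CACGTG and for TATAAA, the letters of cyclic AMP response, AP-1, E-box and TATA elements. TATAAA occurred in 12.9% and CACGTG in 5.59% of all promoters, TGACG in 18.2%, TGACGTCA in 1.59% and TGANTCA in 6.34%. Neither window shown held TGACG or TGANTCA, which says only that these letters are not in these bases.

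Pdyn was found mainly in D1-MSN-like nuclei, which held 78.6% of its UMIs while making up 19.7% of nuclei. Its level in their summed counts was 47.1 CPM in the saline female, 40.5 in the saline male, 46.9 in the cocaine female and 52.4 in the cocaine male library (46.8 ± 4.87, SD, n = 4 libraries of both treatments). Casz1-rich nuclei followed at 29.5 ± 6.36 CPM and Grm8-rich nuclei at 17.2 ± 6.37 CPM. The D1 range did not overlap that of Casz1-rich nuclei (24.2 to 38.0 CPM), whereas the Casz1-rich and Grm8-rich ranges overlapped. D2-MSN-like nuclei had Pdyn at 1.52 ± 0.675 CPM. Oligodendrocyte-like nuclei, the class taken here for the background of free RNA, had 3.51 ± 1.15 CPM. In UMIs per nucleus the order was reversed, with means of 0.0123 and 0.00647 and ranges over libraries that overlapped. At least 1 Pdyn UMI was seen in 24.0% to 33.6% of D1-MSN-like nuclei per library, against 0.419% to 0.825% of oligodendrocyte-like nuclei, at median depths of 6739 to 9969 and 1512.5 to 2002 UMIs. With every nucleus thinned to 1000 UMIs the shares were 3.14% to 4.87% and 0.218% to 0.685%. No Pdyn UMI was found in the 80 cholinergic interneuron-like nuclei, which allows a share of nuclei with a UMI of up to 3.75% (counting error only, as for all limits and intervals here).

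Penk was highest in D2-MSN-like nuclei, which held 74.4% of its UMIs. The level there was 343 CPM in the saline female, 401 in the saline male, 356 in the cocaine female and 589 in the cocaine male library (422 ± 114, SD, n = 4). Grm8-rich nuclei had 215 ± 89.5 CPM and Casz1-rich nuclei 132 ± 48.6 CPM, and the ranges of these 2 classes overlapped. Other GABAergic-like nuclei stood at 48.3 ± 15.4 CPM. A Penk UMI was present in 78.9% to 85.7% of D2-MSN-like nuclei, with a median of 2 to 3 and a maximum of 23 to 25 UMIs per nucleus. D1-MSN-like nuclei, at 17.5 ± 10.9 CPM, lay under oligodendrocyte-like nuclei at 36.0 ± 17.5 CPM. In UMIs per nucleus they lay above them, with means of 0.139 and 0.0651. Vascular-like nuclei gave 98.2 ± 73.6 CPM from 16 UMIs in 90 nuclei, too few to place.

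**Figure D1:**
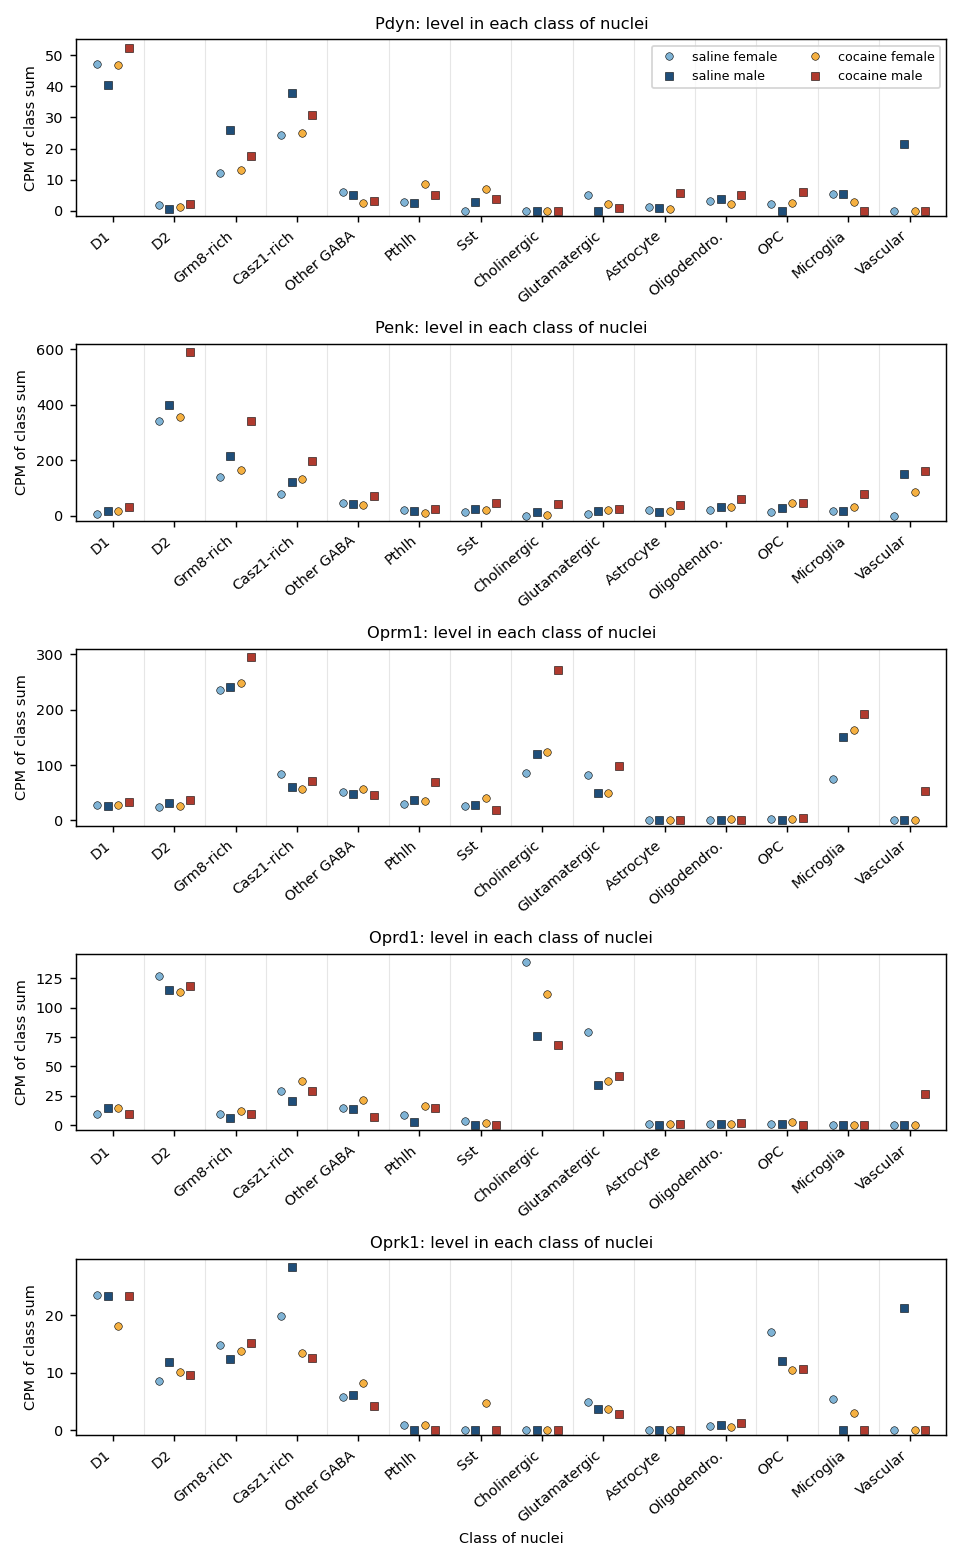
Each point is the CPM of 1 library (circles female, squares male, blue saline, orange and red cocaine) in the summed counts of 1 class of nuclei, on a linear axis, with a panel for each gene. Pdyn peaked in D1-MSN-like, Penk and Oprd1 in D2-MSN-like and Oprm1 in Grm8-rich nuclei, where the 4 libraries lay between 235 and 295 CPM.

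Free RNA in the droplets can give UMIs of abundant genes in some nuclei of every class, and the level of Penk in oligodendrocyte-like nuclei was taken as that background. Whether these glia make Penk themselves was not tested. Oligodendrocyte-like nuclei carried 0.0453 Penk UMIs per nucleus in the saline female, 0.0589 in the saline male, 0.0545 in the cocaine female and 0.102 in the cocaine male library. The cocaine male library was thus the highest in these glia as it was in D2-MSN-like nuclei, where Penk ran to 4.05 UMIs per nucleus against 2.80 to 3.44 in the other 3. The oligodendrocyte-like level equalled 1.32% to 2.51% of the D2-MSN-like level, 5.18% to 6.81% of the Grm8-rich level, 5.40% to 7.52% of the Casz1-rich level and 39.8% to 70.9% of the D1-MSN-like level. In oligodendrocyte-like nuclei there were 2.52 Penk UMIs for each UMI of the D2 genes Drd2, Adora2a and Gpr6 together. The same ratio was 2.15 in astrocyte-like, 2.74 in oligodendrocyte precursor-like and 2.02 in glutamatergic-like nuclei, and 0.389 in D2-MSN-like nuclei themselves. Grm8-rich nuclei had 29.98 Penk UMIs per D2-gene UMI and Casz1-rich nuclei 5.53, so in these 2 classes Penk stood above the ratio seen in glia. D1-MSN-like nuclei, at 1.10, lay between D2-MSN-like nuclei and glia.

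**Figure D2:**
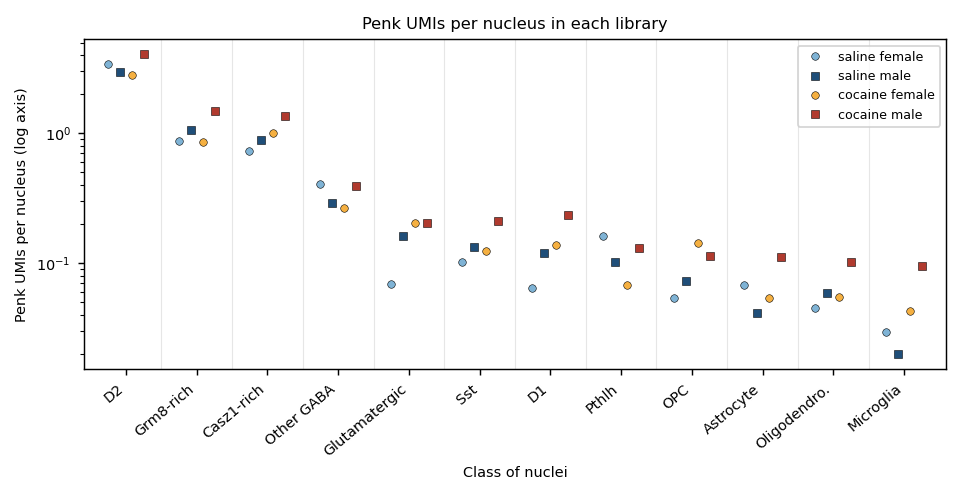
Penk UMIs per nucleus (log axis) for each class, with 1 point per library, in order of the mean. The 3 MSN classes on the left stood above all others, D1-MSN-like nuclei at 0.0639 to 0.235 overlapped the other low classes, and the cocaine male library was the highest in 9 of the 12 classes drawn.

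Oprm1, the receptor for morphine and a target of enkephalins, was highest in Grm8-rich nuclei. Its level there was 235 CPM in the saline female, 241 in the saline male, 249 in the cocaine female and 295 in the cocaine male library. These nuclei were 4.63% of the total and held 27.0% of Oprm1 UMIs, and 60.7% to 71.1% of them had at least 1. Cholinergic interneuron-like nuclei had 150 ± 83.0 CPM with a range that overlapped the Grm8-rich range, from 8 to 29 nuclei per library. Glutamatergic-like (69.7 ± 24.8 CPM), Casz1-rich (68.6 ± 11.9), other GABAergic-like (50.6 ± 4.64) and Pthlh interneuron-like nuclei (42.6 ± 18.6) formed a middle group. Neighbours in this order overlapped, except that the Casz1-rich range (57.6 to 84.0 CPM) lay above the other GABAergic-like range (45.8 to 56.3 CPM). D2-MSN-like and D1-MSN-like nuclei did not differ beyond their spread, at 29.5 ± 5.35 and 29.0 ± 3.39 CPM. Astrocyte-like, oligodendrocyte-like and precursor-like nuclei had at most 2.31 CPM on average.

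Microglia-like nuclei were an exception among glia, with Oprm1 at 75.0 CPM in the saline female, 150 in the saline male, 164 in the cocaine female and 193 in the cocaine male library. The count behind this was 156 UMIs in 779 nuclei, and 13.2% to 20.6% of nuclei had at least 1 Oprm1 UMI, against 0.0765% to 0.577% of oligodendrocyte-like nuclei, at median depths of 1149 to 1747 and 1512.5 to 2002 UMIs. Thinned to 1000 UMIs, the shares were 9.05% to 15.0% and 0.0762% to 0.218%. Cx3cr1, a microglial marker, was seen in 83.9% of the 137 nuclei with Oprm1 and in 84.1% of the rest. In the RefSeq annotation of GRCr8, Oprm1 on the plus strand overlaps Ipcef1 on the minus strand, and Ipcef1 gave 421 UMIs in the same nuclei. Oprm1 was seen in 19.1% of microglia-like nuclei with an Ipcef1 UMI and in 16.6% of those without. How the counting treated strand is not given in the sources used here, so Oprm1 UMIs in this class are uncertain and whether some came from the overlapping gene was not tested.

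Oprd1, the delta receptor, was highest in the class that was also highest for Penk, and D2-MSN-like nuclei held 72.6% of its UMIs. The level was 127 CPM in the saline female, 115 in the saline male, 114 in the cocaine female and 118 in the cocaine male library, the narrowest relative spread of the 5 genes in their leading class (118 ± 5.84). Cholinergic interneuron-like nuclei (98.4 ± 32.7 CPM) overlapped that range, and glutamatergic-like nuclei (48.0 ± 21.0 CPM) came next without reaching D2-MSN-like nuclei. D1-MSN-like (12.2 ± 2.82) and Grm8-rich nuclei (9.53 ± 2.55) were low. In microglia-like nuclei no Oprd1 UMI was found in 779 nuclei, which allows a share of nuclei with a UMI of up to 0.385%.

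Oprk1, the dynorphin receptor, was low in every class. Its level in D1-MSN-like nuclei was 23.6 CPM in the saline female, 23.5 in the saline male, 18.2 in the cocaine female and 23.3 in the cocaine male library. Casz1-rich (18.6 ± 7.35 CPM), Grm8-rich (14.1 ± 1.31) and oligodendrocyte precursor-like nuclei (12.6 ± 3.13) followed, with D2-MSN-like nuclei at 10.1 ± 1.40 CPM, and each neighbour in this order overlapped the next. Among glia, Oprk1 gave 40 UMIs in 1007 oligodendrocyte precursor-like, 10 in 6657 oligodendrocyte-like and 3 in 779 microglia-like nuclei. In astrocyte-like nuclei 0 of 1732 had a UMI, which allows a share of nuclei with an Oprk1 UMI of up to 0.173% and does not limit the share that expresses the gene.

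Within D1-MSN-like nuclei the receptor genes split along sub-clusters that were made without them. Sub-cluster 2 (658 nuclei) had Oprm1 at 96.6 ± 14.4 CPM, against 16.3 ± 4.90 in sub-cluster 0 (2020 nuclei) and 3.38 ± 3.26 in sub-cluster 3 (478 nuclei), and the ranges of the 3 did not overlap. Sub-cluster 2 also had more Pdyn, 75.5 ± 15.4 against 45.1 ± 5.51 CPM in sub-cluster 0 and its lowest library, 52.8 CPM, was next to the highest of sub-cluster 0, 52.3 CPM. From the list of patch markers, Tll1 was 41.4 CPM against 1.79 in sub-cluster 0, Kremen1 94.96 against 24.02 and Sema5b 9.116 against 0.9853. Bach2 was level (169.4 against 166.8 CPM), and Id4 was lower in sub-cluster 2 (5.318 against 14.22 CPM). Kremen1 was higher still in sub-cluster 3 (138.6 CPM) and close to the sub-cluster 2 level in sub-cluster 1 (90.99 CPM). Sema5b was higher in sub-clusters 1 and 4 (9.752 and 71.86 CPM) than in sub-cluster 2. Whether sub-cluster 2 holds patch neurons was not tested. Oprd1 was highest in sub-cluster 1 (1236 nuclei, led by Htr4, Nts and Grm8) at 32.6 ± 4.08 CPM, against 2.33 ± 0.892 in sub-cluster 0. Sub-cluster 4 (287 nuclei, 11 of them in the saline female library) had 20.8 ± 14.0 CPM, with a highest library of 29.1 CPM that reached into the range of sub-cluster 1 (26.7 to 36.2 CPM). Sub-cluster 5, a group of 143 nuclei led by the activity-regulated genes Nr4a3, Pcsk1 and Fosb, had the highest Pdyn, 116 ± 17.9 CPM, and its range of 97.5 to 140 CPM lay above that of every other D1 sub-cluster with over 100 nuclei. Its libraries held 22 (saline female), 17 (saline male), 54 (cocaine female) and 50 nuclei (cocaine male), too few for a test. Sub-cluster 4 held 11, 74, 119 and 83 in the same order. Penk was 34.4 ± 24.6 CPM in sub-cluster 5 and 35.2 ± 23.5 in sub-cluster 4. Sub-clusters 0 to 3 had means of 12.8 to 17.2 CPM, with ranges that overlapped these. The part of such numbers of nuclei in changes of the whole D1-MSN-like class was not tested. Oprk1 varied less, from 19.5 ± 2.62 to 31.0 ± 9.21 CPM in sub-clusters 0 to 3.

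**Figure D3:**
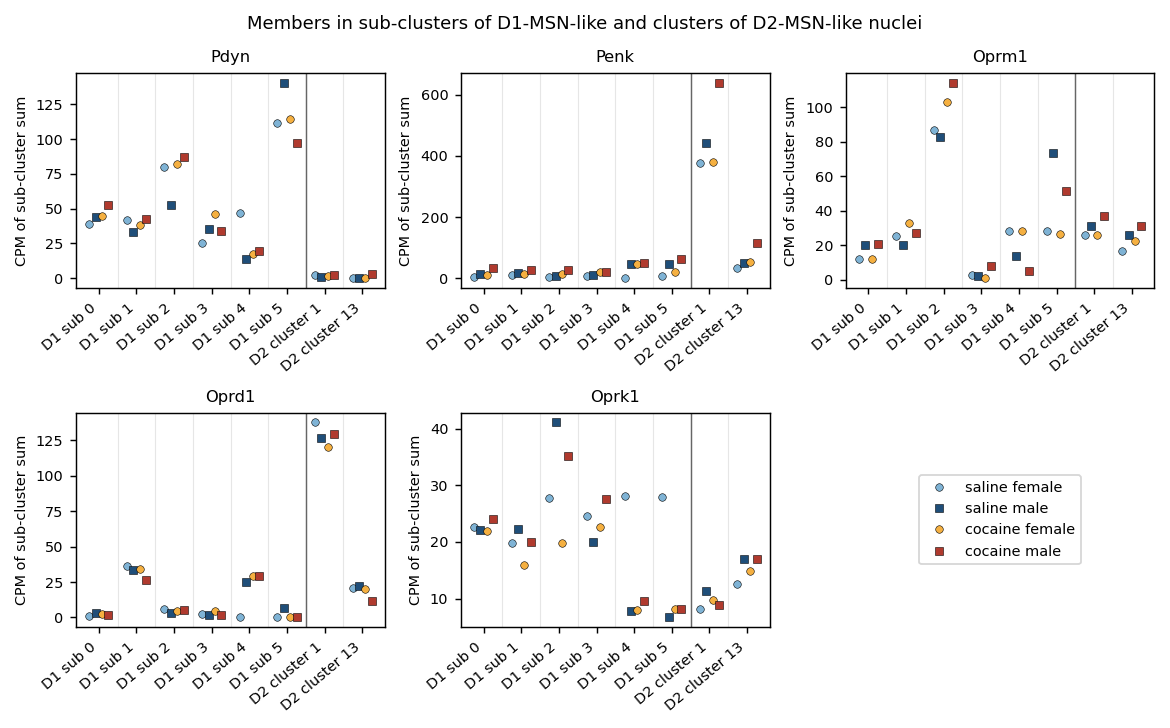
CPM of each gene in 6 sub-clusters of D1-MSN-like nuclei and the 2 clusters of D2-MSN-like nuclei, with 1 point per library as in the plot of levels by class. Oprm1 was highest in D1 sub-cluster 2, Oprd1 in D1 sub-cluster 1 was above the other tested D1 sub-clusters, and both Penk and Oprd1 were low in D2 cluster 13.

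The 2 clusters of D2-MSN-like nuclei also differed. Cluster 1 (3459 nuclei) had Penk at 459 ± 124 and Oprd1 at 128.5 ± 7.23 CPM. Cluster 13 (358 nuclei, with Casz1 among its leading genes) had Penk at 63.0 ± 34.9 and Oprd1 at 18.7 ± 4.97 CPM although its Drd2, 960 CPM, was no lower than the 790.6 CPM of cluster 1. Oprk1 ran the other way, 9.56 ± 1.37 in cluster 1 and 15.4 ± 2.13 CPM in cluster 13, with ranges that did not overlap.

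Some of the genes were seen together in the same nuclei. Of 3139 D2-MSN-like nuclei with Penk, 52.2% also had Oprd1, against 31.9% of those without Penk, and the median depths were 7419 and 6762.5 UMIs. Among D1-MSN-like nuclei, Oprm1 was found in 20.6% of the 1396 with Pdyn and in 12.5% of the rest (8195 and 7613 UMIs). In Casz1-rich nuclei, 82 nuclei had both peptide precursors: Penk was present in 57.3% of nuclei with Pdyn and 34.3% of the others (7522 and 7167 UMIs). Grm8-rich nuclei with Penk and without it had Oprm1 at similar rates, 63.1% and 66.5%. These shares describe nuclei pooled over libraries and over clusters, and they rise with depth. In D2 cluster 13, 16.0% to 23.4% of nuclei per library had a Penk UMI and 5.61% to 12.7% an Oprd1 UMI. In D2 cluster 1 these shares were 86.2% to 92.4% and 50.3% to 58.7%. D1 sub-cluster 2 likewise had more of both Pdyn and Oprm1 than D1 sub-cluster 0. Whether the genes go together within a cluster was not tested.

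After 7 days of cocaine, Penk was the 1 member of the 5 that passed the test, in D1-MSN-like and Casz1-rich nuclei, and Pdyn and the 3 receptor genes passed in none of the classes where they could be tested. Tests used summed counts of the 4 libraries with sex as a covariate (edgeR's quasi-likelihood test, Benjamini-Hochberg adjustment over all genes of the class, call at 0.05). In some fits the spread was taken wholly from all genes together. These were Casz1-rich, astrocyte-like and oligodendrocyte precursor-like nuclei, D1 sub-clusters 0 and 1 and D2 clusters 1 and 13. A p-value there does not measure how that gene itself varied between pools. In D1-MSN-like nuclei 0.256% of 13262 genes passed, in D2-MSN-like nuclei 0.464% of 12722, in Casz1-rich nuclei 0.921% of 9984, and in Grm8-rich nuclei 0 of 10155, where 657 genes had an unadjusted p under 0.05. The share was 0.271% in oligodendrocyte-like, 0.0363% in microglia-like, 0.0236% in oligodendrocyte precursor-like, 1.37% in astrocyte-like, 0.0165% in other GABAergic-like, 1.58% in Pthlh and 0.26% in Sst interneuron-like nuclei, and 0 of 8642 genes in glutamatergic-like nuclei, where 183 had an unadjusted p under 0.05. Of 12 classes tested, these 2 pairs of a member and a class were all that passed; Penk was too low to test in microglia-like and Sst interneuron-like nuclei. DESeq2 on the same sums called no member in any class.

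Penk in D1-MSN-like nuclei was 6.23 CPM (scaled by TMM, edgeR's library normalization) in the saline female, 15.3 in the saline male, 16.4 in the cocaine female and 31.7 in the cocaine male library. Both cocaine libraries lay above both saline libraries, the cocaine female only just above the saline male. With 2 libraries per group such an order is common, and its share over all genes was not computed, here or below. The log2 fold change was 1.18 (SE 0.144, adjusted p 0.00194, edgeR's quasi-likelihood test, p adjusted by Benjamini-Hochberg). Counted in nuclei, 5 of 830 (saline female), 21 of 1348 (saline male), 29 of 1365 (cocaine female) and 51 of 1351 (cocaine male) had 2 or more Penk UMIs. Of these 106 nuclei 43.4% also had a UMI of Drd2, Adora2a or Gpr6, against 5.81% of the other D1-MSN-like nuclei, while Drd1 was seen in 60.4% and 53.7%. With every D1-MSN-like nucleus that had such a D2-gene UMI left out, the change was 1.08 (SE 0.175, edgeR adjusted p 0.0511). Without the saline female library it was 0.65 (0.0831), without the cocaine male 0.59 (0.999), for the cocaine female left out it was 1.53 (0.993), and for the saline male 1.94 (1.25e-12), all edgeR adjusted p-values.

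The background was a larger part of Penk in D1-MSN-like nuclei than in the other MSN classes, as given above. Penk in oligodendrocyte-like nuclei was 21.6, 32.9, 29.3 and 60.0 CPM in the order saline female, saline male, cocaine female and cocaine male (log2 fold change 0.66, SE 0.161, edgeR adjusted p 0.0972). At 1000 UMIs per nucleus, D1-MSN-like nuclei had a Penk UMI less often than oligodendrocyte-like nuclei of the same library in 4 of 4 libraries, for example 0.363% and 2.19% in the saline female and 3.37% and 6.17% in the cocaine male. Thinning takes more from the deeper D1-MSN-like nuclei (median 6739 to 9969 UMIs) than from oligodendrocyte-like nuclei (1512.5 to 2002), so the order of these shares does not place D1-MSN-like nuclei against the background. In UMIs per nucleus, D1-MSN-like nuclei stood above oligodendrocyte-like nuclei in 4 of 4 libraries, by 0.0186 in the saline female, 0.0613 in the saline male, 0.0825 in the cocaine female and 0.134 in the cocaine male. With all UMIs the shares were 5.06% and 4.33% in the saline female and 14.3% and 9.56% in the cocaine male library. With the oligodendrocyte-like level per nucleus subtracted, Penk in D1-MSN-like nuclei gave a log2 fold change of 1.59 (SE 0.241, edgeR adjusted p 0.0091). This SE and p leave out the error of the subtracted level, which was 70.9% of Penk per nucleus in the saline female library. The value therefore does not show that the change is free of background. How much of the D1 change came from free RNA or from nuclei of mixed identity was not tested.

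Casz1-rich nuclei, where the background was 5.40% to 7.52% of Penk per nucleus, had 78.2 CPM in the saline female, 123 in the saline male, 134.5 in the cocaine female and 197 in the cocaine male library. Again the groups did not overlap, with the saline male just under the cocaine female. The log2 fold change was 0.72 (SE 0.141, edgeR adjusted p 0.000138), with 0.76 in females and 0.71 in males. It fell to 0.41 without the cocaine male library (edgeR adjusted p 0.999) and to 0.42 without the saline female (0.378), and to 0.69 with nuclei thinned to 1000 UMIs (0.721, with fewer genes tested).

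In D2-MSN-like nuclei, the main site of Penk, levels were 348 CPM in the saline female, 408 in the saline male, 354 in the cocaine female and 577 in the cocaine male library. The groups overlapped, and the log2 fold change of 0.27 (SE 0.080) did not pass (adjusted p 0.17, edgeR's quasi-likelihood test). The cocaine male library decided the value: without it the change was -0.09, and in females alone cocaine and saline differed by 0.06 log2 units. Without the cocaine female it was 0.62 (edgeR adjusted p 1.39e-05) and without the saline male 0.42 (0.000623). Grm8-rich nuclei had 140 and 223 CPM in the saline and 166 and 336 CPM in the cocaine female and male libraries (0.43, SE 0.122, edgeR adjusted p 0.642). Without the cocaine male library the Grm8-rich value was -0.12, and without the saline male it was 0.82 (edgeR adjusted p 0.000293). The cocaine effect on Penk in D2-MSN-like nuclei was lower than in D1-MSN-like nuclei by 0.81 log2 units (SE 0.155, edgeR adjusted p 0.0088 with library as a block, where 0.128% of genes passed), and it was -0.45 (0.119) without the saline female library. No such difference was called for the other 4 genes.

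Within sub-clusters, Penk passed in D1 sub-cluster 0 (4.30 and 12.5 CPM in saline, 10.3 and 33.4 in cocaine, female then male) with a log2 fold change of 1.37 (SE 0.225, edgeR adjusted p 4.45e-06), where 0.577% of genes passed. The treatments overlapped there, and without the cocaine male library the change was 0.29 (edgeR adjusted p 1), and without the saline female 0.80 (0.465). In sub-cluster 2 Penk had a log2 fold change of 1.63 (SE 0.406, edgeR adjusted p 0.0787), where 0.0927% of genes passed. Sub-clusters 1 and 3, where 0.691% and 0.123% passed, had no call for any member. D2 cluster 13, the small cluster with little Penk, went from 34.4 and 53.1 to 55.3 and 115 CPM (0.96, SE 0.250, edgeR adjusted p 0.0344), where 0.515% of genes passed, and D2 cluster 1 did not pass (0.23, SE 0.073, edgeR adjusted p 0.142, with 0.719% of genes called). The call in cluster 13 was lost without the cocaine male (0.33) or the saline female library (0.73).

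Pdyn in D1-MSN-like nuclei did not pass, with 47.9 and 40.8 CPM in the saline and 47.1 and 51.5 CPM in the cocaine female and male libraries. The log2 fold change was 0.16 (SE 0.102, edgeR adjusted p 0.699), and the groups overlapped. Oprd1 in D2-MSN-like nuclei was 129 and 117 CPM with saline and 113 and 116 with cocaine (-0.10, SE 0.079, edgeR adjusted p 0.727). Oprm1 in Grm8-rich nuclei was 239 and 248 CPM with saline and 251 and 292 with cocaine, a log2 fold change of 0.15 (SE 0.112, edgeR adjusted p 0.828). Oprm1 in microglia-like nuclei was 82.8 and 165 CPM with saline and 177 and 211 with cocaine (0.74, SE 0.258, edgeR adjusted p 0.67). Oprk1 was 24.0 and 23.6 CPM with saline and 18.3 and 22.9 with cocaine in D1-MSN-like nuclei (-0.21, SE 0.127, edgeR adjusted p 0.668). The lowest Oprk1 change among MSN classes was in Casz1-rich nuclei, from 19.9 and 29.2 to 13.6 and 12.7 CPM. There the groups did not overlap, and the log2 fold change of -0.89 (SE 0.304) had an edgeR adjusted p of 0.2. Of the other pairs in this paragraph, the groups did not overlap for Oprk1 in D1-MSN-like, Oprd1 in D2-MSN-like, or Oprm1 in Grm8-rich and microglia-like nuclei. Pairs of a member and a class outside this paragraph are not listed. Such an order is common with 2 libraries per group, its share over all genes was not computed, and it is not read as a change. In simulated counts for D1-MSN-like nuclei the test recovered 94% of 2-fold and 70% of 1.5-fold changes among genes with over 100 UMIs. The shares were 94% and 75% for D2-MSN-like and 87% and 42% for Grm8-rich nuclei, and other classes were not simulated. Among unchanged genes 7, 10 and 4 were called in D1-MSN-like, D2-MSN-like and Grm8-rich nuclei. Each simulated gene had the spread of the trend over genes and no sex difference, and 100 genes were changed at each fold. These shares therefore do not give the power for the members in the real counts.

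**Figure D4:**
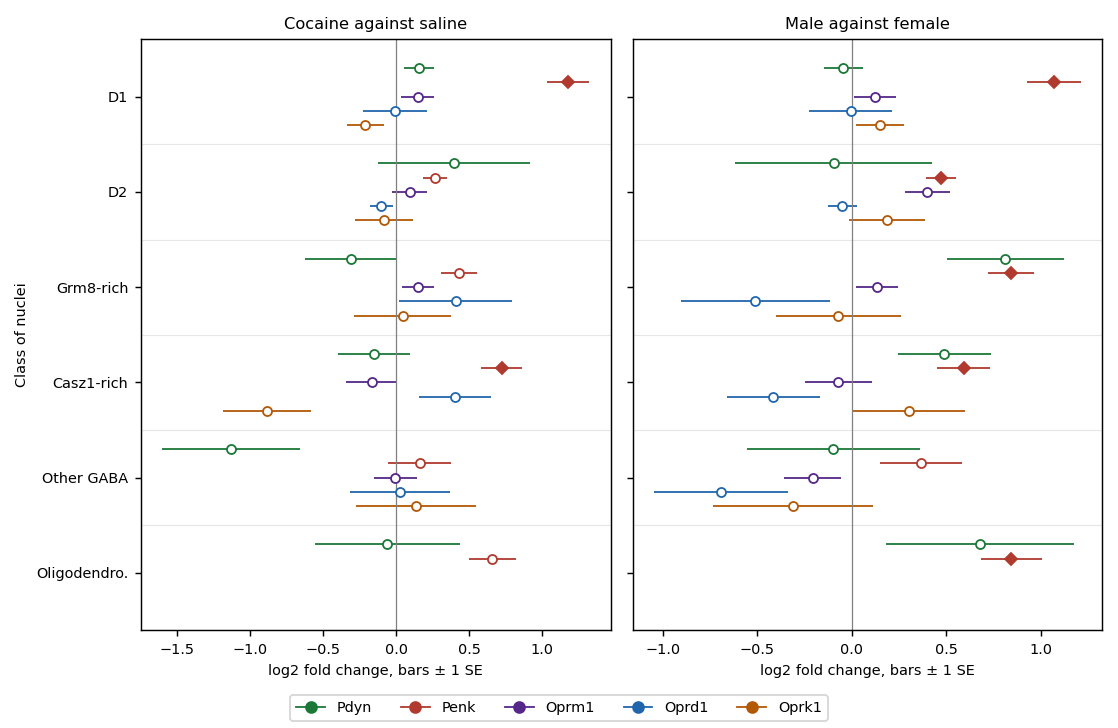
Log2 fold changes with bars of ± 1 SE for the 5 genes in 6 classes, cocaine against saline on the left and male against female on the right, where filled diamonds passed at an adjusted p under 0.05 and open circles did not. Penk passed in 2 of these classes for cocaine and in 5 for sex, and no other gene passed.

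Males had more Penk than females in 5 classes: D1-MSN-like (log2 difference 1.07, edgeR adjusted p 0.00306), D2-MSN-like (0.47, 0.000871), Grm8-rich (0.84, 0.000882), Casz1-rich (0.59, 0.0109) and oligodendrocyte-like nuclei (0.85, 0.00364). Between 0.148% (Grm8-rich) and 3.47% (oligodendrocyte-like) of genes passed for sex in these classes, with 0.241%, 1.37% and 0.371% in D1-MSN-like, D2-MSN-like and Casz1-rich nuclei. In the other classes, where no member passed, the shares were 1.52% (astrocyte-like), 0.543% (oligodendrocyte precursor-like), 0.218% (microglia-like), 0.195% (Pthlh), 0.163% (Sst), 0.0658% (other GABAergic-like) and 0 of 8642 genes (glutamatergic-like, 105 at an unadjusted p under 0.05). In D2-MSN-like, Grm8-rich and oligodendrocyte-like nuclei both male libraries lay above both female libraries. The background class, oligodendrocyte-like nuclei, was thus also higher in males, and its part in the other calls was not tested beyond the subtraction. After it the D1-MSN-like difference was 1.21 (edgeR adjusted p 0.0559, without the error of the subtracted level). The subtraction was also run in D2-MSN-like, Grm8-rich and Casz1-rich nuclei, and those values are not given here. Without the cocaine male library none of the 5 calls was kept, with values from 0.20 (Casz1-rich) to 0.54 (Grm8-rich). Oprm1 in D2-MSN-like nuclei was 0.40 higher in males (SE 0.120) with an edgeR adjusted p of 0.094, and Pdyn, Oprd1 and Oprk1 passed in no class.

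Of 53 other genes of the opioid pathway (other peptides, precursor processing, peptide degradation, receptor coupling, effectors and regulators of the precursor genes), 1 of 49 tested rose in D1-MSN-like, 2 of 47 in D2-MSN-like, 3 of 42 in Casz1-rich and 0 of 43 in Grm8-rich nuclei, and none fell. The median log2 fold change over the list was 0.011 in D1-MSN-like nuclei, -0.015 in D2-MSN-like nuclei, 0.007 in Casz1-rich and 0.050 in Grm8-rich nuclei, beside 0.001 to 0.004 over all genes. The gene that rose in all 3 classes was Pcsk1, the prohormone convertase that makes the first cuts in prodynorphin and proenkephalin. Pcsk1 went from 11.1 to 25.6 CPM in D1-MSN-like nuclei (group means, log2 fold change 1.22, edgeR adjusted p 0.000983), from 12.9 to 25.9 in D2-MSN-like nuclei (1.01, 0.000274) and from 6.85 to 34.0 in Casz1-rich nuclei (2.31, 6.84e-09). Junb, a subunit of AP-1, rose in D2-MSN-like (0.57, edgeR adjusted p 0.00753) and Casz1-rich nuclei (1.03, 0.000177). Pam, which amidates peptides, rose in Casz1-rich nuclei (0.50, 0.00524). The convertase Pcsk2 fell in Pthlh interneuron-like nuclei by 0.49 (edgeR adjusted p 0.0321), where 1.58% of genes passed. Adcy8, an adenylyl cyclase, fell in astrocyte-like nuclei by 0.82 (9.91e-07), where 1.37% passed, and Scg5, the chaperone of Pcsk2, rose in oligodendrocyte-like nuclei (0.76, 0.0288), where 0.271% passed. DESeq2 called none of these. With 1 library left out, Pcsk1 in D2-MSN-like nuclei passed in 4 of 4 cases, and in D1-MSN-like nuclei it was lost without either cocaine library. Pcsk1 and Junb in Casz1-rich nuclei were lost without the cocaine female, and Adcy8 without the saline female or the cocaine male. Pam in Casz1-rich nuclei and Junb in D2-MSN-like nuclei were lost without each library but the saline male, and Pcsk2 and Scg5 without each of the 4.

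Across 21 groups (12 classes, 7 D1 sub-clusters and 2 D2 clusters) the genes with a pattern most like each member were Drd1, Tac1 and Il20ra for Pdyn (Pearson r of log2(CPM + 1) 0.852, 0.83 and 0.805). For Penk they were Plxdc1, Adora2a and Rabgap1l (0.695, 0.669 and 0.592), for Oprm1 Tmem150c, Atp5if1 and its overlapping neighbour Ipcef1 (0.851, 0.8 and 0.777). Oprd1 was most like Kcnk4, Zranb2 and Rapgefl1 (0.727, 0.726 and 0.725), and Oprk1 most like Adamts19, Chst15 and Cbr3 (0.904, 0.875 and 0.874). The groups share libraries and differ in depth, so these values describe likeness only.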

How the data were processed

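For each of the 4 libraries the authors deposited raw UMI counts of every gene in every nucleus, without normalization. Cell Ranger 6.1.2 produced these counts per the file headers, on build rn7 per the submitters' processing notes. Annotation and strand setting: not given in the sources used here. Nuclei passed with 200 or more genes and no more than 5% mitochondrial UMIs, and those with the highest Scrublet scores (scanpy 1.11.5) were removed at 0.8% per 1000 nuclei. Clustering used 2000 variable genes (members, other opioid, immediate-early and sex genes left out), 30 principal components, 15 neighbours and the Leiden method at resolution 0.5 (leidenalg 0.10.2). Clusters were named from marker lists, of which Pvalb, Slc18a3, Flt1 and Cldn5 were not among the symbols used (7162 of 30560 genes carry none). The score limits, and a split of 1 cluster into Grm8-rich and Casz1-rich nuclei at resolution 0.1, were set after the data were seen, and 5 of 23 clusters had no name. D1-MSN-like nuclei were divided at resolution 0.4. CPM are UMIs of a gene per 1000000 UMIs of the class sum. Promoter sequences are from RefSeq GRCr8, another build than the counts.

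Classes with at least 25 nuclei, and sub-clusters with at least 50, in every library were tested with edgeR 4.0.16 (TMM, filterByExpr, quasi-likelihood F test, Benjamini-Hochberg over all genes tested; the SE is the log2 fold change over the root of F). Cholinergic and vascular nuclei were too few. The sex comparison used the same fit. DESeq2 1.42.0, other size factors, no filter on low counts, no covariate, each library left out, another clustering, no doublet removal, a gate per nucleus and thinning to 1000 UMIs were tried. Intervals and limits use a 95% level and 3 counts. Named genes were the 5 members in every class, pathway genes that passed in D1-MSN-like, D2-MSN-like or Grm8-rich nuclei and up to 3 in other classes, the 3 genes most like each member (at least 10 CPM in 1 group), and genes of the free RNA ratios. Members and lists were chosen with earlier results of these data known. The fit was tested on simulated data.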

Additional observations from a re-analysis of the deposited data

Results flagged for a closer look

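The cocaine effect on Penk differed between classes of nuclei: it was lower in D2-MSN-like than in D1-MSN-like nuclei by 0.81 log2 units (value -0.81, edgeR adjusted p 0.0088 for the difference itself).

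In 4 further cases cocaine and saline differed in opposite directions in the 2 sexes. With 1 pool for each sex and treatment the difference was not tested, and it is given as the log2 change in males minus that in females. Oprm1 gave 0.771 in Casz1-rich nuclei (0.23 in males, -0.54 in females) and 1.74 in glutamatergic-like nuclei (1.00 and -0.74). Oprd1 in glutamatergic-like nuclei gave 1.37 (0.28 and -1.09), and Penk in other GABAergic-like nuclei gave 1.06 (0.79 and -0.28). The glutamatergic-like class had as few as 29 nuclei in 1 library. Only members that passed the filter on low counts in the class, with a class level of at least 25 CPM and changes of at least 0.2 log2 units in each sex, were considered. Oprm1 in Sst interneuron-like nuclei (40 UMIs) met the last 2 conditions, with 0.55 in females and -0.53 in males, but did not pass the filter.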

How the results depend on the processing

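Across the results and alternatives run, 253 of 375 recomputed values kept direction and side of the threshold, 103 no longer passed, 16 newly passed and 3 changed sign. The 3 changes of sign were Penk under cocaine without the cocaine male library, in D2-MSN-like (-0.09), Grm8-rich (-0.12) and D2 cluster 1 nuclei (-0.15), and none of these had passed. With 1 library left out these 3 reached 0.62, 0.89 and 0.59. Penk in D1-MSN-like nuclei no longer passed with DESeq2 (1.21), without the sex covariate (1.12), with nuclei gated by marker UMIs (0.65) or with nuclei holding D2-gene UMIs left out (1.08), and ran from 0.59 to 1.94 with 1 library left out. The D2 minus D1 difference of Penk ran from -1.53 to -0.45 likewise. The 2 calls over classes became 0 with DESeq2 and 0 without the sex covariate, and 0 to 4 with 1 library left out. The 1 call in D1 sub-clusters became 0 with DESeq2 and without the covariate, 2 with other size factors, 2 without a filter, and 0 to 2 with 1 library left out. The 5 calls for sex became 0 with DESeq2, 1 without the treatment covariate and 0 to 5 with 1 library left out. The causes were not tested. With 1 library left out the lone library of a group is assumed to vary like the others, and no covariate was fitted. The subtraction of the oligodendrocyte-like Penk level, the fits of D2 clusters apart and the removal of D1 nuclei with D2-gene UMIs were chosen after seeing the data. Without doublet removal the Grm8-rich class could not be named and has no value there. The level of each gene in its leading class moved by less than 1 SD with thinned nuclei and, except for Oprm1, whose Grm8-rich level was not obtained, without doublet removal. Thinned fits tested fewer genes (4350 against 9984 in Casz1-rich nuclei). The labels give no replicate numbers, so sex, with 1 saline and 1 cocaine pool each, was the pairing fitted, as a covariate of the cocaine tests within a class, and the difference between D2 and D1 used the library as a block.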

Other observations

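The 5 unnamed clusters were in no comparison. Of these, a cluster of 315 nuclei led by Stac and Drd3 had Oprm1 at 24.6 ± 14.7 CPM, Penk at 21.8 ± 11.3, Oprd1 at 21.2 ± 15.1 and Pdyn at 8.31 ± 7.17 (SD, n = 4 libraries). A cluster of 73 nuclei led by Cyyr1, Mecom and Adgrl4 gave 21 Penk UMIs (147 ± 68.2 CPM), and 144 nuclei led by cilia genes such as Cfap299 and Dnah12 gave 16 Penk UMIs (41.6 ± 49.5 CPM). The cluster of 149 nuclei led by Enpp6 and Bcas1 had 5 Penk UMIs and no Oprk1 UMI.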
